A study of Mus musculus with 2 samples.

Results

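The cell division genes described here are 45 mouse genes of the cell cycle, taken by symbol through each probe's transcript accession from 20886 genes on the array. They fall into 14 genes of G1 and S phase, which start and carry out DNA replication, and 31 genes of G2 and mitosis. The RNA came from male C57BL/6J WT mice that ate a normal diet (ND) or, for the same 4 weeks, a high-fat diet (HFD). RNA of 10 livers and 10 adipose tissues was pooled by diet before labelling, so no value of a single animal exists. Each tissue was measured on 1 array with 2 channels, the ND pool in Cy3 (green) and the HFD pool in Cy5 (red), which gives 4 pools in all. The age of the mice, the fat depot, the number of animals in each pool and any sharing of mice between tissues are not given in the sources used here. With 1 array per tissue, no replicate and no dye swap, no test across animals could be made, and diet and dye cannot be told apart.

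A cell that commits to division raises cyclin D and cyclin E activity, which frees E2F transcription factors to switch on the genes of DNA synthesis. The MCM helicase then opens the DNA, PCNA clamps the polymerases to it, and thymidylate synthase and ribonucleotide reductase supply nucleotides. Later, cyclin A, cyclin B and CDK1 drive the cell into mitosis, where condensins pack the chromosomes and kinesins build the spindle. The spindle checkpoint holds back the anaphase-promoting complex, which later lets the chromosomes separate. Most hepatocytes and mature adipocytes of adult mice are quiescent, while immune, endothelial and stromal cells of fat can divide. Gut crypts and testis hold dividing cells at all times.

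Promoter sequences are shown first because the S phase and mitosis genes differed in the short words they carry. RefSeq promoters of GRCm38.p6, from 250 bases before to 50 bases after the start of transcription, were found for 37 of the 45 genes. No entry was found for Aurkb, Ccna2, Ccnd1, Ccne2, Foxm1, Kif20a, Mcm4 and Tpx2. Both strands were searched for the cell cycle genes homology region (CHR, TTTGAA), through which MuvB complexes hold mitotic genes silent in quiescent cells and activate them in G2. The search also took the CCAAT box (CCAAT), bound by NF-Y, and the E2F word in the forms TTTCCCGC, TTTGGCGC, TTTCGCGC and TTTGCCGC. The 250 bases before the start are printed 5′ to 3′ on the strand of the gene for the mitosis genes Mki67, Cdc20 and Ccnb2. The helicase genes Mcm5 and Mcm6 are printed as well. These are examples whose printed stretch holds the words, and they do not stand for the other genes. Cenpe, at a log2 ratio of 1.49 in fat, held no TTTGAA, and Mcm7, at -0.38, held an E2F word. Capitals mark these words on either strand, and words that overlap run together. Words after the start are not printed. Ccnb2 thus shows its TTTGAA at position -167 but not the other at position 5.
Mki67 (chr7:135716380-135716629, minus strand): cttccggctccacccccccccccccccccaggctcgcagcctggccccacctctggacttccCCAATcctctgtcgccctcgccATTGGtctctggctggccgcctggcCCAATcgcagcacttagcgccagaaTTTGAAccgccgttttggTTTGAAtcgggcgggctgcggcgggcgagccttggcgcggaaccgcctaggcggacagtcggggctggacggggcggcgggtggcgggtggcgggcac
Cdc20 (chr4:118437344-118437593, minus strand): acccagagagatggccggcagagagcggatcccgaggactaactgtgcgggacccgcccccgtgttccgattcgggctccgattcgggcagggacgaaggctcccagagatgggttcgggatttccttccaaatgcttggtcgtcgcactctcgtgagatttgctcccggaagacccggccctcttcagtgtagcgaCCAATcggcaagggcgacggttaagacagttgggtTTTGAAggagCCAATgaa
Ccnb2 (chr9:70421555-70421804, minus strand): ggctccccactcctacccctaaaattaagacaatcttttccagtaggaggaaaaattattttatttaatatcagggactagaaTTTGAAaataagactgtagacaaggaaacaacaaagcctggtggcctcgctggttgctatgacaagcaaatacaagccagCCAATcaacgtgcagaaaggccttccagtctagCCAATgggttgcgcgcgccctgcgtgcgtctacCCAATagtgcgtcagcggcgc
Mcm5 (chr8:75109259-75109508, plus strand): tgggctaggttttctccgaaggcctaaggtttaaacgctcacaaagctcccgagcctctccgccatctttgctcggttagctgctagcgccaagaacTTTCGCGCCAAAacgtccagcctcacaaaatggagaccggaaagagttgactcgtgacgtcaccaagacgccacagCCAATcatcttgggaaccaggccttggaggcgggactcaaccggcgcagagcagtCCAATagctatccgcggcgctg
Mcm6 (chr1:128359706-128359955, minus strand): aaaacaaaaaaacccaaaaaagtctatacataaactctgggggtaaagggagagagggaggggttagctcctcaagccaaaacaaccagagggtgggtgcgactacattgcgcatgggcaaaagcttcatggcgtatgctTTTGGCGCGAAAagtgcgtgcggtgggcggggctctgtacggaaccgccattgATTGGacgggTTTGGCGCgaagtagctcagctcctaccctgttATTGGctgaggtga

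Over the whole window, 19 of 26 mitosis genes (73.1%) held TTTGAA on either strand, against 1 of 11 S phase genes (9.09%), Mcm2, and 20.2% of 27025 genes with a promoter. The CCAAT word stood in 21 of 26 mitosis genes (80.8%), 8 of 11 S phase genes (72.7%) and 41.1% of all genes. Both words together stood in 18 of 26 mitosis genes (69.2%), 1 of 11 S phase genes and 7.97% of all genes. An E2F word of these forms stood in 4 of 11 S phase genes (36.4%), all of them helicase subunits (Mcm3, Mcm5, Mcm6 and Mcm7), in 2 of 26 mitosis genes, Cdk1 and Ncapg, and in 2.60% of all genes. Prc1 and Mcm7 have 2 starts in the table and were counted once. A match is a description of the letters and not of binding.

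Each value below is a log2 level, the brightness of a gene's probes in 1 channel after normalization, or a log2 ratio, the HFD pool over the ND pool. A gene counted as measured when both channels of at least 1 of its probes were well above background. A measured gene was called when its pools differed at least 2-fold, which is 1.00 on the log2 scale. The scanner error is the software's own estimate for a probe's log2 ratio and does not cover animals or pools. The arrays gave a ratio for 13642 genes in liver and 14315 in adipose tissue, at a median scanner error of 0.21 on either. On the adipose array the high-fat channel was brighter, with a median probe signal of 253.5 against 93, and 8.06% of all genes were well above background there alone. The labelled tissues bore their markers. All 20 hepatocyte markers were measured on the liver array, at a summed ND log2 level of 20.71 against 18.33 on the adipose array, and all 16 adipocyte markers on the adipose array, at 20.16 against 16.48 in liver. Of the 45 cell division genes, 30 were measured in liver, 1 was above background in the ND channel alone and 14 in neither channel. In adipose tissue 37 were measured, 3 were above background in the HFD channel alone and 5 in neither, and no gene lacked a probe.

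In liver none of the 30 measured cell division genes was at least 2-fold higher or lower, which is near the 0.491% and 0.579% of all measured genes. Over 6424 liver genes in the brightness range of the mitosis genes, 0.436% were higher and 0.327% lower by that much. The liver mitosis genes were dim, at a median ND level of 7.14, where 6.19 was the lowest level well above background. Ratios of dim probes are pulled toward 0 by the background offset. The 13 measured S phase genes had a median ratio of 0.01, from -0.41 to 0.82, and the 17 mitosis genes a median of -0.05, from -0.36 to 0.36, beside a median of 0.01 over all genes. Of these, 8 S phase and 8 mitosis genes lay above 0, against 52.3% of all genes. In adipose tissue the mitosis genes were higher in the HFD pool. Of 24 measured, 14 (58.3%) were at least 2-fold higher and none lower, against 4.23% and 5.13% of all measured genes, and their median was 1.05 (2.07-fold). The S phase genes were less far apart, with a median of 0.29 (1.23-fold) over 13 measured and none past 2-fold in either direction. Of all 37 measured members, 34 lay above 0 in fat, against 49.3% of all adipose genes, whose median was -0.01. Over 8196 adipose genes in the brightness range of the mitosis genes, the median was 0.00 and 4.34% were at least 2-fold higher. In these bulk pools, more dividing cells, of fat or of other tissue, and more RNA per dividing cell cannot be told apart. Neither can diet and dye.

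**Figure D1:**
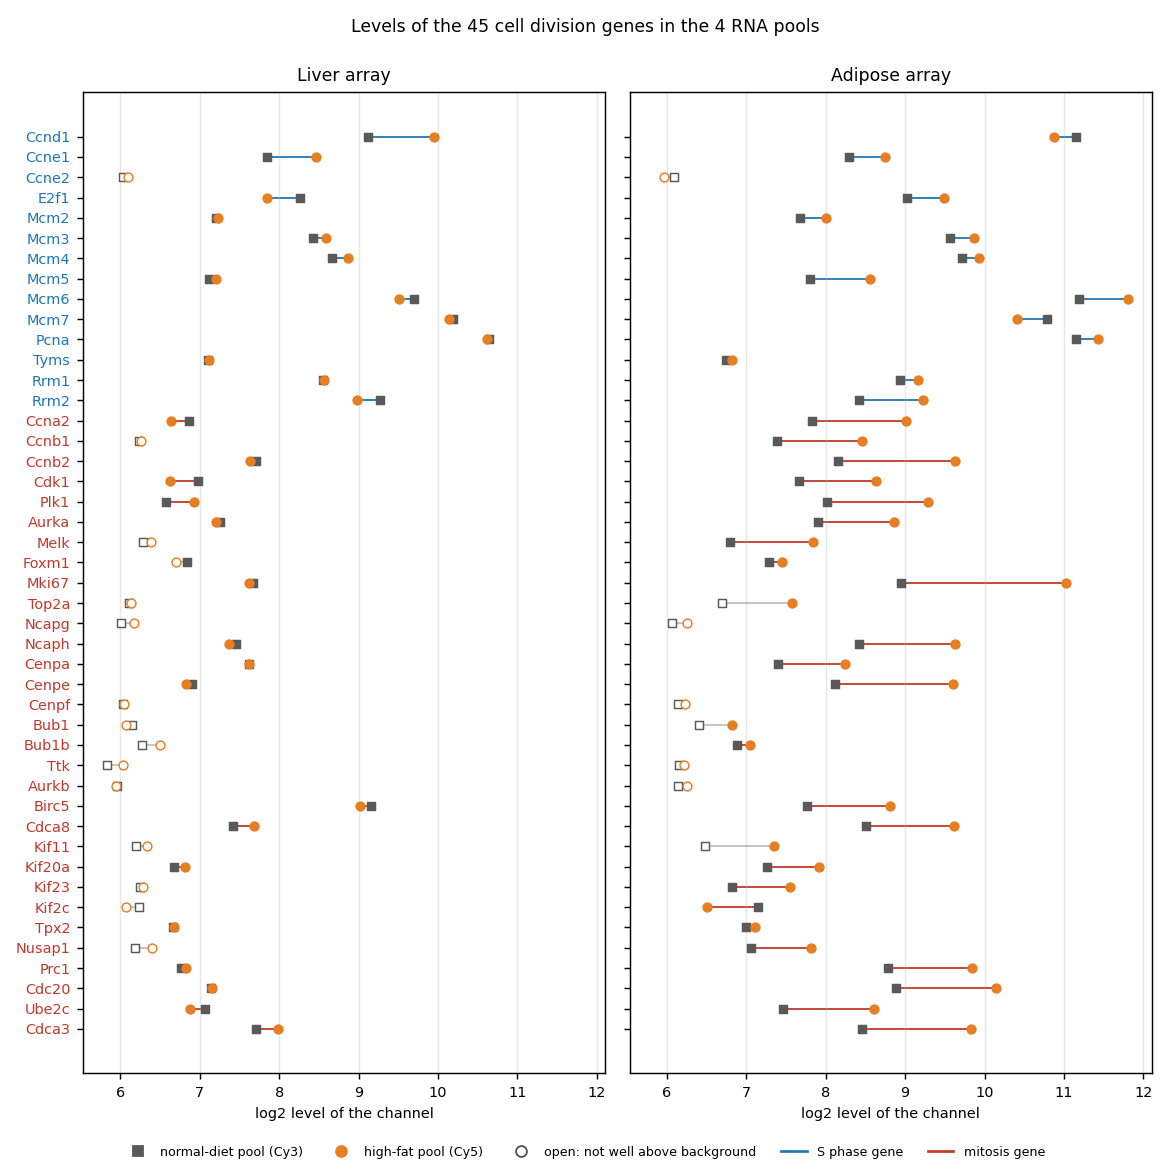
Log2 level of each of the 45 genes in the ND pool (squares) and the HFD pool (circles) of the liver array (left) and the adipose array (right), with open symbols where a channel was not well above background and lines joining the pools of a gene. In liver the symbols of most genes overlap, while on the adipose array most mitosis genes (red) have the HFD symbol to the right, by up to 2.07 for Mki67.

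The genes that open the cycle differed among themselves. Ccnd1, which encodes cyclin D1, was at log2 levels of 9.12 (ND) and 9.94 (HFD) in liver and 11.15 and 10.87 in adipose tissue. The HFD pool was thus the brighter in liver, by a ratio of 0.82 (scanner error 0.22), and the dimmer in fat, at -0.28 (0.21). Ccne1, for cyclin E1, was at 7.84 and 8.47 in liver and 8.29 and 8.75 in fat, higher in the HFD pool on both arrays (0.63 and 0.46). These 2 cyclins were the only members whose liver ratio passed 2 scanner errors, which 4.53% of all liver genes did upward and 3.3% downward. With all local backgrounds as deposited, their liver ratios were 0.26 and 0.07. With median centring, where all liver genes had a median of 0.32, Ccnd1 was at 1.20, and with the looser filters on dim probes Ccne1 was at 0.95, its second probe reading 1.27. E2f1, the activator that cyclin-dependent kinases release from the retinoblastoma protein, went from 8.26 to 7.85 in liver and from 9.02 to 9.49 in fat. Its ratios of -0.41 and 0.46 lay on opposite sides of 0, the liver one within 2 scanner errors. The cyclin E2 gene Ccne2 was above background in no pool.

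The 6 subunits of the replicative helicase were measured on both arrays. In liver their ratios ran from -0.19 (Mcm6) to 0.19 (Mcm4), all within 1 scanner error of 0. In adipose tissue 5 of 6 lay above 0, with a median of 0.31. Mcm5 went from a level of 7.80 to 8.55 (0.75, or 1.68-fold, scanner error 0.23) and Mcm6 from 11.19 to 11.81 (0.62, or 1.54-fold, error 0.21). Mcm2 (0.33), Mcm3 (0.29) and Mcm4 (0.22) were smaller. Mcm7 was the exception, at 10.79 in the ND pool and 10.41 in the HFD pool (-0.38). The 4 genes with an E2F word (Mcm3, Mcm5, Mcm6 and Mcm7) thus held both ends of this range. With median centring in place of loess, which moved the median of all adipose genes to 0.69, the Mcm7 and Ccnd1 ratios turned to 0.57 and 0.70.

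Among the genes of the clamp and of nucleotide supply, Rrm2, the cell-cycle-controlled subunit of ribonucleotide reductase, stood apart. Its levels were 9.27 and 8.99 in liver and 8.42 and 9.22 in fat, a ratio of -0.28 and then 0.80 (1.74-fold, scanner error 0.22), the highest of the S phase genes in fat. Its partner Rrm1, which is more even through the cycle, was at 8.56 in both liver pools and at 8.94 and 9.17 in fat (0.23). Pcna, the sliding clamp, was at 10.64 and 10.61 in liver and at 11.16 and 11.43 in fat (0.27). Tyms, which makes thymidylate, was dim in all 4 pools, from 6.74 to 7.11, with an adipose ratio of 0.08. In fat, 5 of 13 S phase genes passed 2 scanner errors upward (Ccne1, E2f1, Mcm5, Mcm6 and Rrm2), against 13.7% of all adipose genes.

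**Figure D2:**
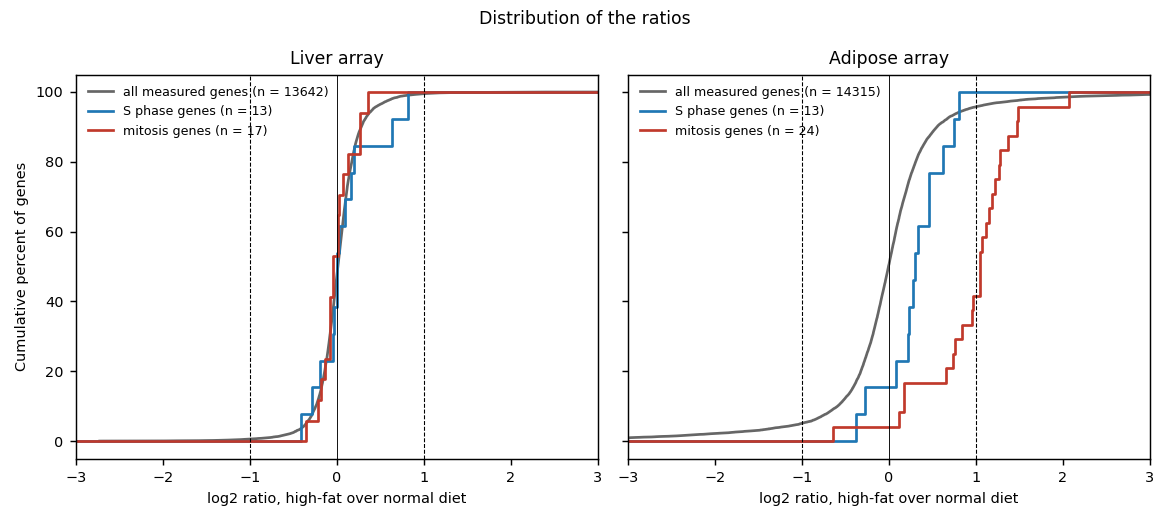
Cumulative percent of genes (vertical axis) at or below each log2 ratio of the HFD over the ND pool (horizontal axis) for all measured genes (grey), S phase genes (blue) and mitosis genes (red), with dashed lines at 2-fold. In liver the 3 curves overlap around 0, while in adipose tissue the mitosis curve crosses its middle at 1.05 and the S phase curve at 0.29.

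Mki67, which encodes the Ki-67 protein that coats mitotic chromosomes and is the usual marker of cycling cells, had the highest ratio of all members. Its 2 probes gave log2 levels of 7.67 and 7.62 in the liver pools and of 8.95 (ND) and 11.02 (HFD) in fat. The liver pools therefore overlapped, and the fat pools differed by 2.07 (4.21-fold, scanner error 0.29). The probes gave 2.04 and 2.11 in fat and -0.07 and -0.02 in liver. Ncaph, a subunit of condensin I, was at 7.45 and 7.37 in liver and at 8.41 and 9.63 in fat (1.22, or 2.33-fold). The gene of topoisomerase II alpha, Top2a, which untangles sister chromatids, was above background in the adipose HFD channel alone. Its log2 levels of 6.69 and 7.58 there give a bound of 1.85-fold higher. Such a bound sets the brighter channel against the dim channel's own signal or the lowest signal well above background, whichever is higher. It is open to dye bias. For Top2a, Bub1 and Kif11 the dim channel's own signal was the higher, so their bounds are plain ratios and not firm minima. Ncapg, another condensin subunit, was above background in no pool.

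The cyclins and kinases that start mitosis, with their activator, lay on 1 side of 0 in fat. All 8 were measured there, with a median of 1.06, and 5 were at least 2-fold higher. Ccnb2, for cyclin B2, was at 7.71 and 7.64 in liver and at 8.15 and 9.63 in fat, a ratio of 1.47 (2.78-fold, scanner error 0.27). Plk1, the polo-like kinase, was at 6.57 and 6.93 in liver and at 8.01 and 9.29 in fat (1.27, or 2.42-fold). Ccna2, for cyclin A2, which acts from S phase on, was at 6.86 and 6.64 in liver and at 7.82 and 9.01 in fat (1.19, or 2.27-fold). So each of these 3 genes had liver pools at most 0.36 apart and an adipose HFD pool well above the ND pool. Ccnb1, for cyclin B1, and the kinase gene Melk were above background in neither liver channel and at 1.07 and 1.05 in fat. The Ccnb1 value rests on 1 of its 3 probes. The other probes were above background in the HFD channel alone, at ratios of -0.08 and 0.37, and the mean over all 3 would be under 2-fold. Cdk1, the kinase of cyclin B, was just under 2-fold (levels 7.66 and 8.63, ratio 0.97), again on 1 of 3 probes, with 0.04 and 0.10 on the others. Aurka, the kinase of the spindle poles, was at 0.95, from 7.91 to 8.86. Foxm1, the transcription factor that activates many of these genes in G2, differed least, at levels of 7.28 and 7.44 (0.17).

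At the kinetochore, where chromosomes meet the spindle, Cenpe stood highest. This motor protein's gene was at 6.90 and 6.83 in liver and at 8.11 and 9.60 in fat, a ratio of 1.49 (2.80-fold, scanner error 0.28). Cenpa, the histone variant that marks centromeres, was at 7.61 and 7.62 in liver and at 7.40 and 8.24 in fat (0.84, or 1.79-fold). The checkpoint genes were near the limit of detection. Bub1b was at 6.88 and 7.04 in fat (0.17), and Ttk and Cenpf were above background in no pool. Bub1 was above background in the HFD channel alone, with a bound of 1.34-fold (0.42, under its scanner error of 0.52). In the chromosomal passenger complex, which corrects faulty attachments, Cdca8, for borealin, was at 7.42 and 7.69 in liver and at 8.50 and 9.61 in fat (1.11, or 2.16-fold). That value rests on 1 of 2 probes, and the mean with the other, at 0.35, would be under 2-fold. The survivin gene Birc5 was at 9.15 and 9.02 in liver on 1 probe. In fat its 3 measured probes averaged 7.76 and 8.81, a ratio of 1.05, but spread widely, at 1.84 for the brightest and at 0.75 and 0.56 for the dim ones. Aurkb, the kinase of this complex, was above background in no pool.

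The spindle and cytokinesis genes held the only mitosis gene on the other side of 0. Prc1, which bundles the central spindle, was at 6.76 and 6.83 in liver and at 8.79 and 9.84 in fat (1.05, or 2.07-fold, scanner error 0.23), just past 2-fold. The kinesin genes Kif23 (0.73) and Kif20a (0.66) and the microtubule binder Nusap1 (0.76) were higher by 1.58 to 1.69-fold in fat. Kif11, the motor that pushes spindle poles apart, had a bound of 1.83-fold. Kif2c, which takes microtubules apart at centromeres, was at 7.15 in the ND pool and 6.51 in the HFD pool (-0.64, scanner error 0.31), and its probes gave -1.01 and -0.27. The ratio was -1.53 with the software's own log ratio and -1.01 with the brightest probe. Tpx2, a spindle assembly factor that activates Aurora A, averaged 0.11 over 2 probes of opposite direction. The probe of 1 RefSeq transcript gave 0.84 (levels 6.89 and 7.73) and that of another transcript of the gene -0.61 (7.11 and 6.50). Germ cell markers, which belong to neither labelled tissue, were lower in the same HFD pool, with a summed log2 level of 16.11 in the ND pool and 12.95 in the HFD pool. Of 20 listed, 11 were measured, all below 0, where 49.3% of all adipose genes lay above 0. At least 2-fold lower were 5 of the 11 (45.5%), against 5.13% of all adipose genes, led by Tnp2 (-4.27) and Prm2 (-3.76). The germ cell genes Dazl, Stra8, Sycp1, Sycp2, Dmc1, Spo11, Tex11, Ccna1 and Piwil1 were above background in neither channel. Their part in the Kif2c and Tpx2 values was not tested.

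All 3 genes of mitotic exit passed 2-fold in fat, around a median of 1.26. Cdca3, which promotes mitotic entry and is itself degraded at exit, was at 7.71 and 7.98 in liver and at 8.46 and 9.83 in fat (1.37, or 2.59-fold). Cdc20, the activator of the anaphase-promoting complex, was at 7.14 and 7.15 in liver and at 8.88 and 10.14 in fat (1.26, or 2.40-fold, scanner error 0.24). Ube2c, the ubiquitin-conjugating enzyme of that complex, was at 7.06 and 6.87 in liver and at 7.46 and 8.61 in fat (1.15, or 2.22-fold), and its probes gave 1.21 and 1.09. Over all mitosis genes measured in fat, 20 of 24 were higher by over 2 scanner errors, against 13.7% of all genes, and only Kif2c was lower by that much.

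**Figure D3:**
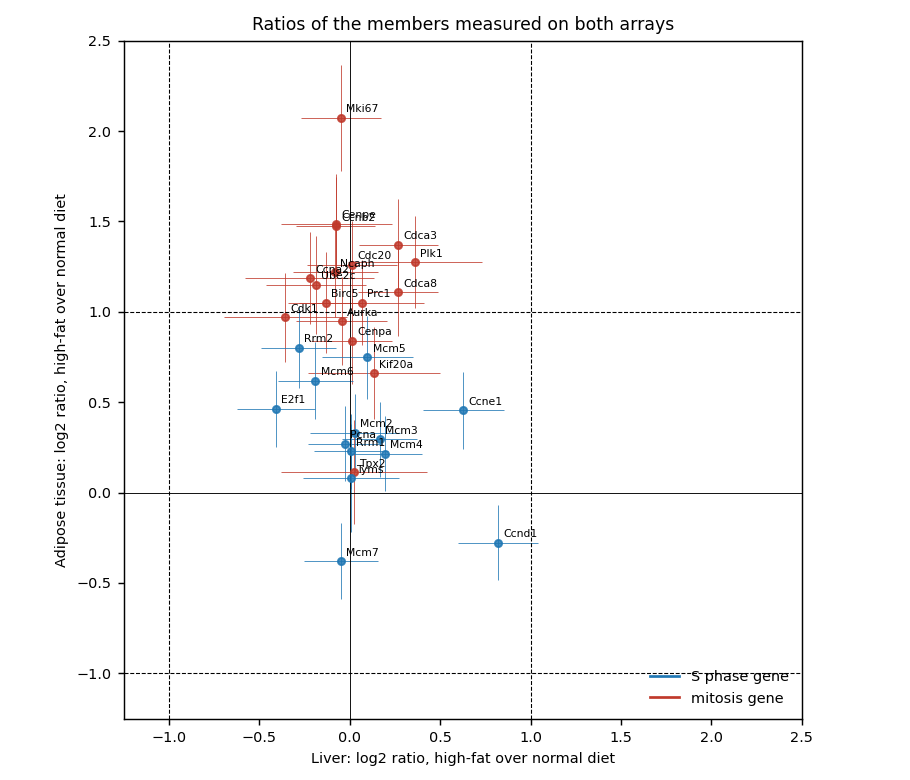
Log2 ratio of the HFD over the ND pool in liver (horizontal axis) and in adipose tissue (vertical axis) for the 30 genes measured on both arrays, S phase genes in blue and mitosis genes in red. Bars are 1 scanner error each way, dashed lines mark 2-fold, and the mitosis genes form a column near 0 in liver that reaches 2.07 in fat.

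Side by side, all 17 mitosis genes measured on both arrays had a higher ratio in fat than in liver. The difference, adipose minus liver, had a median of 1.18, from 0.09 (Tpx2) to 2.12 (Mki67), and was at least 2-fold for 10 of 17, against 3.77% of 12689 genes measured on both. For the 13 S phase genes the median difference was 0.22, with Rrm2 (1.08) and Ccnd1 (-1.10) the members past 2-fold. The pools on normal diet were compared as well. Over probes measured on both arrays, the ND level was higher on the adipose array for 16 of 17 mitosis genes (median difference 0.81) and 11 of 13 S phase genes (0.60), against 46.9% of 12662 genes (median -0.07). The liver pools had 13 of 31 mitosis genes above background in neither channel, and the adipose pools 4, against 31.0% and 22.1% of all genes. Each tissue had an array of its own, so tissue and array cannot be told apart, and the level comparison holds only if the arrays share 1 brightness distribution, which Aquantile imposes.

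Apart from the measured mitosis genes with both words, the groups are small, and no group was tested against another. The 13 measured mitosis genes with both TTTGAA and CCAAT had a median of 1.11, and 8 were at least 2-fold higher. The 4 with neither word (Birc5, Melk, Ncaph and Nusap1) had a median of 1.05, and 3 were. The 2 with CCAAT alone, Ccnb1 and Cenpe, had a median of 1.28, and both were. The only one with TTTGAA and no CCAAT was Kif2c, at -0.64. Among 801 measured adipose genes outside the list that hold both words, the median ratio was -0.01 and 4.00% were at least 2-fold higher. The share was 6.01% of 882 with TTTGAA alone, 3.66% of 3958 with CCAAT alone and 3.87% of 5683 with neither. It was 4.23% of all adipose genes.

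Other genes of the cycle were taken from lists written with the members. Of 76 other mitosis genes, 46 were measured in fat, with a median of 0.39. At least 2-fold higher were 5 of the 46 (10.9%), against 4.23% of all adipose genes, and 2 (4.35%) were lower, against 5.13%. The higher genes were Kif22 (1.37), a chromosome kinesin, Kpna2 (1.23), a nuclear import receptor that binds spindle factors, Tacc3 (1.10), Cdca5 (1.04) and Incenp (1.00). Espl1, the gene of separase, which cuts cohesin, was lower (-1.94), as was Troap (-1.14). A further 27 of the 76 were above background in the HFD channel alone, against 8.06% of all genes. The highest bounds were those of Shcbp1 (2.22-fold), Aspm (1.97-fold) and Pbk (1.82-fold). Of 44 other replication genes, 38 were measured in fat, with a median of 0.19. The 1 gene at least 2-fold higher (2.63%, below the share of all genes) was Uhrf1, which carries DNA methylation across replication (1.23). Tk1, a thymidine kinase, was at 0.99, Gmnn, the licensing inhibitor geminin, at 0.84 and Rpa2, a single-strand DNA binder, at -0.94.

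In liver the median was 0.02 over 37 measured of the other mitosis genes and 0.08 over 36 of the other replication genes. None was past 2-fold, beside 0.491% (higher) and 0.579% (lower) of all liver genes. The mitosis genes farthest from 0 were Ccnf (-0.91), Ect2 (0.71), Nek2 (-0.50) and H2ax (-0.49), and the replication genes Mcm10 (0.66), Ung (0.65), Gmnn (0.44) and Prim1 (-0.41). Of 25 brakes of the cycle measured in liver, 1 was at least 2-fold higher (4%) and 2 were lower (8%), against 0.491% and 0.579% of all liver genes. Cdkn1a, for the CDK inhibitor p21, was at -2.68, Gadd45b at -1.14 and Wee1, a kinase that inhibits CDK1, at 1.46, with a median of 0.00 over 25 measured and E2f8 just short of 2-fold (1.00 after rounding). In fat the 28 brakes had a median of 0.05. Of these, 1 was at least 2-fold higher and 1 lower (3.57% each), below the 4.23% and 5.13% of all adipose genes. Cdkn2b, for the inhibitor p15, was higher (1.69, from levels of 8.14 and 9.83), Gadd45g was lower (-1.09), the E2F repressor E2f8 was at 0.99, and Cdkn1c, for the inhibitor p57, at -0.70. Of the other G1 cyclins and kinases, 11 were measured in fat, with a median of 0.31. The activator E2f2 (1.54) and the phosphatase Cdc25a (1.19) were at least 2-fold higher (2 of 11, or 18.2%), against 4.23% of all adipose genes. Ccnd2 was at 0.51 and Myc at -0.56. In liver the same list had a median of 0.03 over 11, from -0.14 (Tfdp1) to 0.29 (Tfdp2), with E2f2 at 0.12 and Ccnd2 at 0.11.

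Markers of cells that could carry division genes into fat were read on the same array. All 20 markers of intestinal epithelium were measured and at least 2-fold higher in the adipose HFD pool, against 4.23% of all adipose genes. Their median was 3.63 and their summed log2 level 15.51 (ND) and 19.24 (HFD), led by Fabp2 (6.42) and Sis (5.76). Of 16 markers of the dividing gut crypt, 14 were measured, with a median of 0.25, from -0.81 to 3.47 and with 2 below 0. The summed level, which the brightest genes of a list dominate, was 15.03 and 15.55. Cdx1 (3.47) and Myb (1.91) were at least 2-fold higher (2 of 14, or 14.3%), while the stem cell markers Lgr5 (6.83 and 7.19) and Ascl2 (7.17 and 8.05) were at 0.36 and 0.88. Hepatocyte markers had a median of -3.88 over 20, with a summed level of 18.33 and 17.57, led by Ambp (-5.59) and Fgg (-5.32). Exocrine pancreas markers had a median of -1.97 over 15, with 14.99 and 12.77, led by Try4 (-2.98) and Sycn (-2.79). These lists moved with the mitosis genes or against them in the same pools, and their part in the ratios was not tested.

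B and plasma cell markers had all 8 measured members above 0, against 49.3% of all adipose genes. Their median was 0.60 and their summed level 11.46 (ND) and 12.70 (HFD), with Jchain, the joining chain of secreted antibodies, at 1.91 and Ms4a1 at 0.74. Pax5 and Blk were above background in neither channel. T and NK cell markers had a median of 0.30 over 10 (12.19 and 12.36), with 4 below 0 (lowest -0.44), Gzma at 1.17 and Cd5 at 0.58. Macrophage markers had 0.07 over 15 (16.09 and 16.52), with Itgax at 0.84 and Cd5l at -0.82. Stromal progenitor markers had a median of 0.18 over 12 (17.90 and 17.64), with 3 below 0 (lowest -0.75). Dpp4, also in the intestinal epithelium list, was at 2.23 and Col3a1 at 0.85. Endothelial markers were at 0.03 over 12 (15.71 and 15.85), with 6 below 0 (lowest -0.32), Cldn5 at 0.59 and Tek at 0.51. Granulocyte markers were at -0.23 over 8 (10.99 and 11.29), with S100a8 at 1.51 and Ltf at -0.99, and erythroid markers at -0.42 over 7 (16.40 and 15.66), with Tfrc at 0.95 and Hba-a1 at -0.77. Adipocyte markers had a median of 0.11 over 16 (20.16 and 20.00), with Lep at 1.66 and Cfd at -1.70. On the liver array the 13 marker lists had medians from -0.23 (B and plasma cells) to 0.39 (hepatocytes). The markers past 2-fold were Tff3 (2.40, 1 of 8 measured in its list), Cyp2e1 (1.14, 1 of 20) and Slc2a4 (-1.07, 1 of 13). Of all liver genes, 0.491% were at least 2-fold higher and 0.579% lower. Which cells held the division transcripts was not measured, and the part of these lists was not tested.

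**Figure D4:**
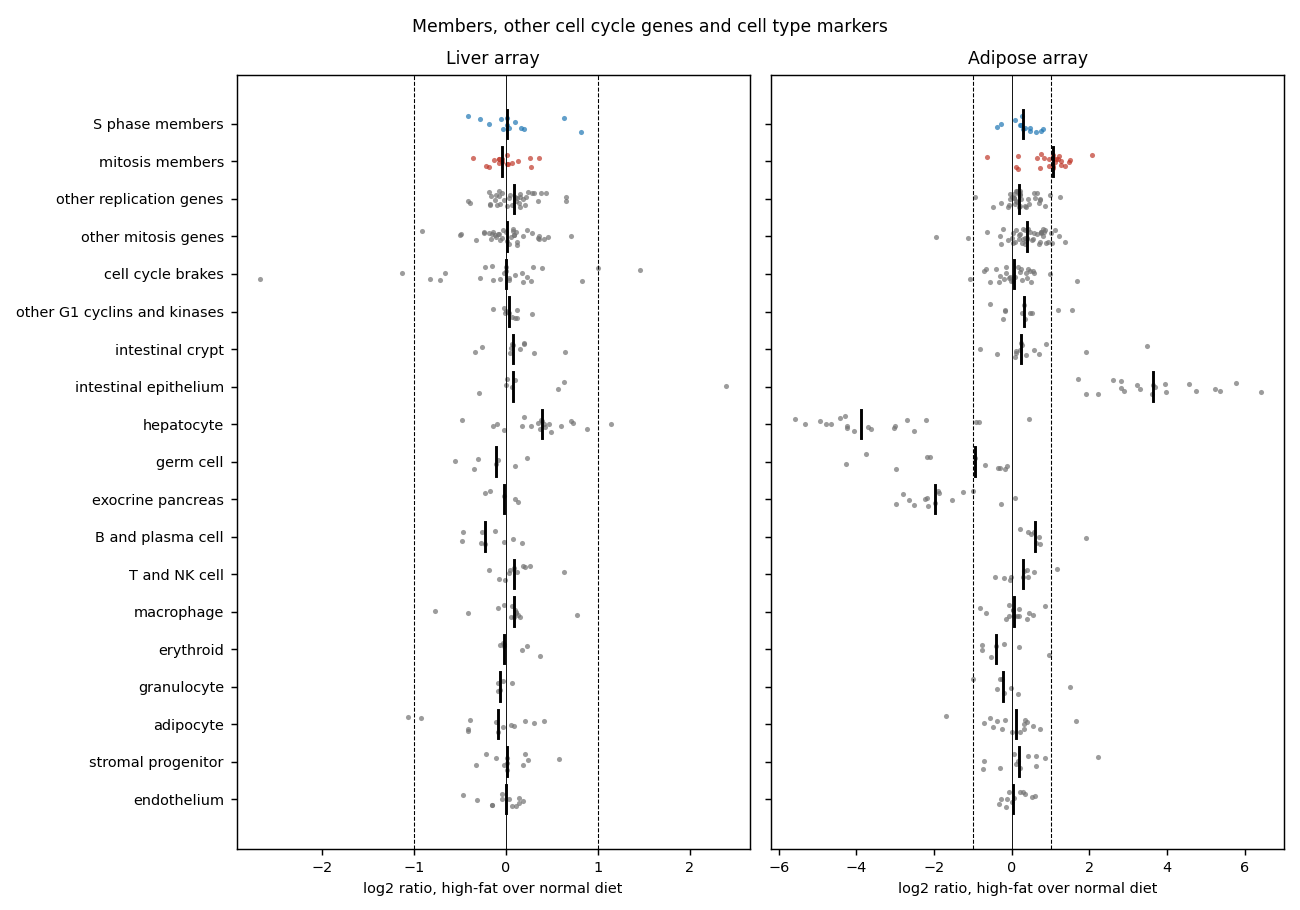
Log2 ratio of the HFD over the ND pool for each measured gene (points) of the S phase and mitosis members, 4 other cell cycle lists and 13 marker lists, with the median as a black bar and dashed lines at 2-fold, in liver (left) and adipose tissue (right, on a wider axis). In fat the mitosis members (red) centre on 1.05, the intestinal epithelium on 3.63 and the hepatocyte markers on -3.88.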

How the data were processed

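Each tissue was hybridised on 1 2-colour Agilent array. The deposited intensity values are median pixel signals of each spot and its local background, without normalization, per the file headers (Feature Extraction 11.5.1.1, while the submitters' processing notes name 8.5.1.1). The scanner software's ratio of Cy5 to Cy3, background-subtracted and dye-normalized by it, was deposited as log10 with an error on that scale, per the file headers. Both were converted to log2.

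Local backgrounds marked as outliers were replaced by the array's median, background was corrected by normexp with an offset of 50, and ratios were loess-normalized, giving control spots a weight of 0 (limma 3.58.1, R 4.3.3). Channel levels were scaled between arrays with Aquantile. Spots marked as outliers were left out, and spots, then measured probes of a gene, were averaged. Transcript accessions gave genes for 27507 of 39427 adipose probes. The offset pulls ratios of dim probes toward 0. All 45 members were named, with the 4 genes farthest from 0 of each pathway list and the 2 of each marker list in fat. Others (Tff3, Cyp2e1, Slc2a4, Cdca5, Incenp, Tacc3, Lgr5, Ascl2, and the genes with bounds or not above background) were chosen after their values were seen. Members and lists were chosen with earlier results of these data known. The steps were tested on simulated data. No p-value was computed. Of the alternatives, 9 were listed in advance and 1, a running median by brightness over 501 probes, was added after seeing the data.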

Additional observations from a re-analysis of the deposited data

How the results depend on the processing

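All 14 calls of mitosis genes in fat were kept with no background subtraction, an offset of 10, local backgrounds as deposited, the software's log ratio and the brightest probe. Median centring kept them too, but it raised the median of all adipose genes to 0.69 and so favoured higher calls. The error filter could not drop any of the 14, because their scanner errors were at most 0.32 (Melk). Ccnb1 and Cdca8 were lost (12 of 14 kept) with either looser filter on dim probes, and Prc1 (13 of 14) with the running median by brightness subtracted. The adipose mitosis median of 1.05 became 1.47 under the scanner's own ratios and 1.58 under median centring, against a median of all genes of 0.69 there. Median centring also gave an adipose S phase median of 1.14 with 9 genes at least 2-fold higher, a liver S phase median of 0.30 with 1 gene higher (all genes 0.32), and median differences between tissues of 0.73 (S phase) and 1.91 (mitosis). Among all called genes, 87.2% were then higher in fat, against 45.1%, and 94.1% in liver, against 45.9%. The liver share was 59.5% when 1 channel above background sufficed and 56.9% with no filter. The software's log ratio put 1 S phase gene (Mcm5) past 2-fold higher in fat and 1 mitosis gene lower in fat (Kif2c, as did the brightest probe, 1) and in liver (Cdk1, 1). With the error filter the S phase medians were 0.72 in liver (2 genes) and 0.62 in fat (5), and the difference was -0.17 (1 gene); no liver mitosis gene was left. Without a filter the mitosis difference was 0.73. Of 631 single member values under alternatives, 545 moved by less than the member's scanner error. The looser filters, the brightest probe and the error filter cannot change a gene with 1 probe, so many of these could not move. Median centring moved 41 values by more and the software's log ratio 23. No paired analysis was possible because each tissue has 1 array. Signal over background left 14 members above background in neither channel in liver and 5 in fat.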
